A study of Mus musculus with 8 samples.

Results

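The 9 genes described here mark the course of B-cell development: Rag1, Rag2, Dntt, Vpreb1, Igll1, Ebf1, Pax5, Cd79a and Cd79b. They were found by exact match of the gene symbol, and all 9 were present among the 22059 genes measured in every sample. Poly(A)-selected RNA of whole livers from wild-type FVB mice (FVB/NJ in the Methods) was sequenced, with 2 samples at each of embryonic day 18 (E18), postnatal day 14 (P14), postnatal day 28 (P28) and the adult age of 3 months. No group carried a transgene, deletion or treatment, and stage is the labelled difference between the groups. The Methods describe the FVB/NJ adults of 3 months as male and give no sex for the E18, P14 or P28 livers. A difference in sex can therefore not be told apart from stage. The study calls the samples biological duplicates, the labels name no litter, batch or date, and neither says whether a sample was a single animal or a pool. The p-values therefore measure the spread between these samples.

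B cells form from lymphoid progenitors that commit to the lineage, assemble an immunoglobulin heavy chain gene by V(D)J recombination at the pro-B stage, test it at the pre-B stage and then assemble a light chain gene. In mice this takes place in the fetal liver before birth and moves to the bone marrow, while mature B cells circulate through all organs, the adult liver included. RAG1 and RAG2 cut the DNA and the polymerase TdT, encoded by Dntt, adds bases at the joints. VPREB1 and IGLL1 (lambda 5) form the surrogate light chain that pairs with a new heavy chain, EBF1 and PAX5 are the transcription factors that specify and commit the lineage, and CD79A and CD79B are the signalling chains of the pre-B and mature B-cell receptors. The first 5 of these genes are early genes that mature B cells no longer use, whereas Cd79a and Cd79b are used from the early stages onward.

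Promoter sequence is shown for the E box CAGGTG, a target of the E2A proteins that act with EBF1 in early B cells. Of the 8 members with an entry in the RefSeq promoter set used here, 4 hold it. Cd79b had no entry in that set and was not searched. The windows run from 250 bases before to 50 bases after the RefSeq start on GRCm38.p6, both strands were searched, and CAGGTG was found in 20.2% of all 32851 windows of that length. Each line gives 30 bases on the strand of the gene, with the motif in capitals.
Rag1, chr2:101649650-101649679, minus strand: ttcctgaagagcCAGGTGccagctggagct
Vpreb1, chr16:16869326-16869355, minus strand: atgacgttccagCAGGTGcttcctcccaga
Igll1, chr16:16863986-16864015, minus strand, motif on the other strand: ctggggtttggctacacagatcCACCTGca
Cd79a, chr7:24897331-24897360, plus strand: ttgtggccagccCAGGTGcagggcagttcc

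The first base of these matches lay 135 bases before the start of Rag1, 88 before that of Vpreb1, 8 before that of Igll1 and 154 before that of Cd79a. In the Rag1 window the related E box CAGCTG, present in 16.3% of all windows, began 128 bases before the start, 1 base after the end of the CAGGTG match. Among the 8 members searched, CAGCTG also occurred at Igll1, 158 bases before its start. The core CCCNNGGG bound by EBF1, in 13.7% of all windows, occurred only at Igll1 among the 8 members searched, 231 bases before its start.
Igll1, chr16:16864199-16864228, minus strand, EBF core in capitals: ctgctccacagaCCCAGGGGccctcaggga
The Ikaros core TGGGAA, in 25.6% of all windows, was found at Rag1 and in 1 of the 2 windows of Ebf1. The matches are a description of the letters in these windows, and no binding was measured.

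Between E18 and adult liver, 4 of the 9 genes fell, Rag1, Igll1, Ebf1 and Cd79b, and 1 rose, Dntt. A change was called at a Benjamini-Hochberg adjusted p below 0.1 over all 17081 genes tested with edgeR and a change over 3-fold. By that rule 23.8% of all tested genes fell and 16.8% rose between E18 and adult, so these counts stand against a high background. With library size alone 6 genes were lower, Vpreb1 (-1.90) and Cd79a (-1.66) being added, and with limma on RPKM 3, without Ebf1 (-1.26). From P14 to P28, the interval in which Rag1 and Igll1 reached the limit of detection, 5 of the 9 genes were called lower against 5.98% of all tested genes. All 9 genes passed the filter on low counts, but Rag1, Dntt, Vpreb1, Igll1, Ebf1 and Pax5 passed only through the stages where they were high.

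Rag1, on chromosome 2 (GRCm38, 101638282 to 101649501, minus strand), had 204 and 296 reads in the E18 samples, 79 and 54 at P14, then 1 and 0 at P28 and 0 and 1 in adult. Its level in reads per 1000000 reads on genes after TMM scaling (CPM) was 1.94 ± 0.671 at E18, 0.734 ± 0.181 at P14, then 0.00625 ± 0.00884 at P28 and 0.00753 ± 0.0107 in adult (SD, n = 2 each). Every E18 sample lay above every P14 sample, and from P28 on the gene was at the limit of detection, since 3 reads correspond to 0.0216 to 0.0516 CPM in these libraries. For this ratio and those of other genes below, reads were summed over duplicates and scaled by depth and TMM factor. The E18 level was 290.0 times that of P28 (95% interval from counting error 51.8 to 11476) and 238 times that of adult (42.6 to 9439). The edgeR log2 fold change was -7.69 (SE 0.69, adjusted p = 6.3e-06) from E18 to adult and -6.53 (SE 0.75, adjusted p = 0.00019) from P14 to P28. Such fitted values depend on the prior count where nearly no reads remain, and the E18 to adult value ran from -10.50 without adult replicate 2 to -6.88 without adult replicate 1.

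Rag2, the partner of Rag1 and its close neighbour (chromosome 2, 101624718 to 101632529, plus strand), did not follow it. It had 214 and 220 reads at E18, 207 and 232 at P14, then 146 and 153 at P28 and 135 and 126 in adult. Its level was 1.67 ± 0.181 CPM at E18, 2.43 ± 0.244 at P14, then 1.98 ± 0.222 at P28 and 2.11 ± 0.299 in adult (SD, n = 2 each). On this scale adult liver held about as much as fetal liver. The log2 fold change from E18 to adult was 0.34 (SE 0.19, edgeR adjusted p = 0.14) with TMM scaling. It was -0.51 with scaling by library size alone (edgeR adjusted p = 0.029) and -0.46 on RPKM (limma adjusted p = 0.025), both under 3-fold. In the annotation, 208 of the 3424 exonic bases of Rag2 (6.07%) are shared with an exon of B230118H07Rik on the opposite strand, a gene with 838 to 1545 reads per sample. Whether the counting used strand is not given in the sources used here, and the part of these reads in the Rag2 values was not tested.

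Dntt (chromosome 19, 41029275 to 41059525, plus strand) ran opposite to Rag1. It had 2 reads in each E18 sample, 88 and 118 at P14, then 253 and 114 at P28 and 54 and 61 in adult. The level went from 0.0154 ± 0.0014 CPM at E18 to 1.14 ± 0.257 at P14, then 2.38 ± 1.11 at P28 and 0.923 ± 0.0066 in adult (SD, n = 2 each). No postnatal sample overlapped the E18 samples, which lay below the level of 3 reads, and the P28 duplicates differed from each other the most. The P14 level was 74.4 times that of E18 (95% counting interval 28.6 to 276) and the P28 level was 158 times (61.3 to 584), on only 4 reads at E18. From E18 to P14 the edgeR log2 fold change was 6.10 (SE 0.55, adjusted p = 8.6e-06). Between P14 and P28 it was 1.06 (SE 0.32, adjusted p = 0.025), under the 3-fold threshold and 0.48 without P28 replicate 1. T cells also use TdT during their development. Of 10 tested T-cell markers 7 were called higher and 1 lower from E18 to P14, against 13.8% and 15.4% of all tested genes. From P14 to P28 1 was called higher and 0 lower, against 3.61% and 5.98%. In that interval 6 were lower at an unadjusted edgeR p below 0.05 and DESeq2 called 0 lower. Cd3e, a chain of the T-cell receptor complex, had 4 reads in each E18 sample against 107 and 111 at P14 and 57 and 46 at P28. Lck, a T-cell kinase, ran the other way, with 1227 and 1281 reads at E18 and 293 and 282 at P14. These marker genes were named after their values were seen. The part of T-lineage cells in the Dntt values was not tested.

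Igll1 (chromosome 16, 16860671 to 16863985, minus strand) had 140 and 255 reads at E18, 84 and 87 at P14, then 3 and 2 at P28 and 0 and 3 in adult. Its level was 1.55 ± 0.760 CPM at E18, 0.946 ± 0.0422 at P14, then 0.0327 ± 0.0067 at P28 and 0.0226 ± 0.032 in adult (SD, n = 2 each). The E18 and P14 samples did not overlap, but the E18 duplicates lay further apart than the lower of them lay from P14. The change from E18 to P14 did not pass the test (log2 fold change -0.70, SE 0.39, edgeR adjusted p = 0.13), and was -0.08 without E18 replicate 2. The log2 fold change from P14 to P28 was -4.78 (SE 0.65, edgeR adjusted p = 0.00045). The E18 level was 45.8 times the P28 level (95% counting interval 19.5 to 142) and 62.8 times the adult level (21.3 to 306).

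Vpreb1 (chromosome 16, 16868403 to 16870843, minus strand), which codes for the other component of the surrogate light chain, was near the limit of detection throughout. It had 17 and 14 reads at E18, 6 and 3 at P14, then 7 and 8 at P28 and 3 and 4 in adult, or 0.118 ± 0.0057, 0.0495 ± 0.0225, 0.0997 ± 0.0172 and 0.0559 ± 0.0061 CPM (SD, n = 2 each). E18 was above P14 in every sample. P28 was above P14 as well, but that change did not pass the test (log2 fold change 0.98, SE 0.54, edgeR adjusted p = 0.17). From E18 to P14 the log2 fold change was -1.23 (SE 0.49, edgeR adjusted p = 0.048), under 3-fold, and -1.76 without P14 replicate 1, past it, against -0.83 without P14 replicate 2. From E18 to adult the log2 fold change was -1.06 (SE 0.53, edgeR adjusted p = 0.092), under 3-fold. Its near copy Vpreb2 had 1 to 3 reads in each sample and was not tested. The protein-coding transcripts of Vpreb1 and Vpreb2 in GENCODE are 96.5% identical over 766 aligned bases, with an identical run of 196 bases, so reads could be split between them or dropped. Vpreb1 also shares 108 of its 1199 exonic bases (9.01%) with Top3b on the opposite strand.

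Ebf1 (chromosome 11, 44617317 to 45008091, plus strand) had 40 reads in each E18 sample, 24 and 21 at P14, then 7 and 6 at P28 and 4 and 5 in adult. Its level went from 0.308 ± 0.0273 to 0.249 ± 0.0185, 0.0857 ± 0.0025 and 0.072 ± 0.0046 CPM (SD, n = 2 each), with no overlap between successive stages. The first and the last of these steps did not pass the test. The log2 fold change was -0.30 from E18 to P14 (SE 0.31, edgeR adjusted p = 0.40) and -0.24 from P28 to adult (SE 0.49, edgeR adjusted p = 0.83). From E18 to adult the log2 fold change was -2.07 (SE 0.40, edgeR adjusted p = 0.0011). Between P14 and P28 it was -1.52 (SE 0.39, edgeR adjusted p = 0.012), just under 3-fold, and -1.60 without P14 replicate 2, past it. Outside the B lineage Ebf1 is also expressed in mesenchymal cells, and the summed level of 9 stellate and mesenchymal markers was 576 to 700.4 CPM at E18, 1194 to 1599.9 at P14, then 643 to 673 at P28 and 388 to 388 in adult. Of these 9 markers 2 fell and 2 rose between E18 and adult, near the 23.8% and 16.8% of all tested genes, and none was at 0. The part of mesenchymal cells in the Ebf1 values was not tested.

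Pax5 (chromosome 4, 44524757 to 44710487, minus strand), which holds cells in the B lineage until they become plasma cells, was highest at P14. It had 16 and 12 reads at E18, 37 and 21 at P14, then 4 and 7 at P28 and 3 and 5 in adult. The level was 0.107 ± 0.0122, 0.320 ± 0.119, 0.074 ± 0.0339 and 0.0634 ± 0.0168 CPM (SD, n = 2 each). Both P14 samples lay above all others. The difference between E18 and P14 was just under 3-fold (log2 fold change 1.57, SE 0.43, edgeR adjusted p = 0.0087), and it passed 3-fold without E18 replicate 1 (1.69) or P14 replicate 2 (1.92). It was 1.14 without P14 replicate 1, 0.71 with library size alone and 0.43 with limma on RPKM. Pax5 fell from P14 to P28 (log2 fold change -2.11, SE 0.50, edgeR adjusted p = 0.0081).

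Cd79a (chromosome 7, 24897381 to 24902197, plus strand) had 56 and 102 reads at E18, 104 and 142 at P14, then 28 and 21 at P28 and 25 and 18 in adult. Its level was 0.619 ± 0.304, 1.36 ± 0.324, 0.322 ± 0.0399 and 0.350 ± 0.112 CPM (SD, n = 2 each). The P14 samples were the highest on this scale, though E18 and P14 overlapped in RPKM, and E18 and adult overlapped. The log2 fold change was 1.15 from E18 to P14 (SE 0.37, edgeR adjusted p = 0.019), under 3-fold, and 1.76 without E18 replicate 2, past it. It was 0.71 without E18 replicate 1, 0.28 with library size alone and 0.30 with limma on RPKM. From P14 to P28 it was -2.07 (SE 0.41, edgeR adjusted p = 0.0033).

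Cd79b (chromosome 11, 106311341 to 106314762, minus strand) had the most reads of the 9 genes up to P14, with 330 and 485 at E18 and 379 and 435 at P14, then 103 and 105 at P28 and 51 and 59 in adult. Its level was 3.17 ± 1.12, 4.51 ± 0.527, 1.38 ± 0.128 and 0.883 ± 0.0085 CPM (SD, n = 2 each). Both chains were thus lowest after P14, and Cd79b fell between P14 and P28 with a log2 fold change of -1.71 (SE 0.25, edgeR adjusted p = 0.00073). The log2 fold change from E18 to adult was -1.84 (SE 0.27, edgeR adjusted p = 0.00017), and -1.42 without E18 replicate 2, under 3-fold. From E18 to P14 it was 0.51 with TMM scaling and -0.35 with library size alone. In whole liver, fewer cells of a type and less RNA per cell cannot be told apart, for these as for the other genes.

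**Figure D1:**
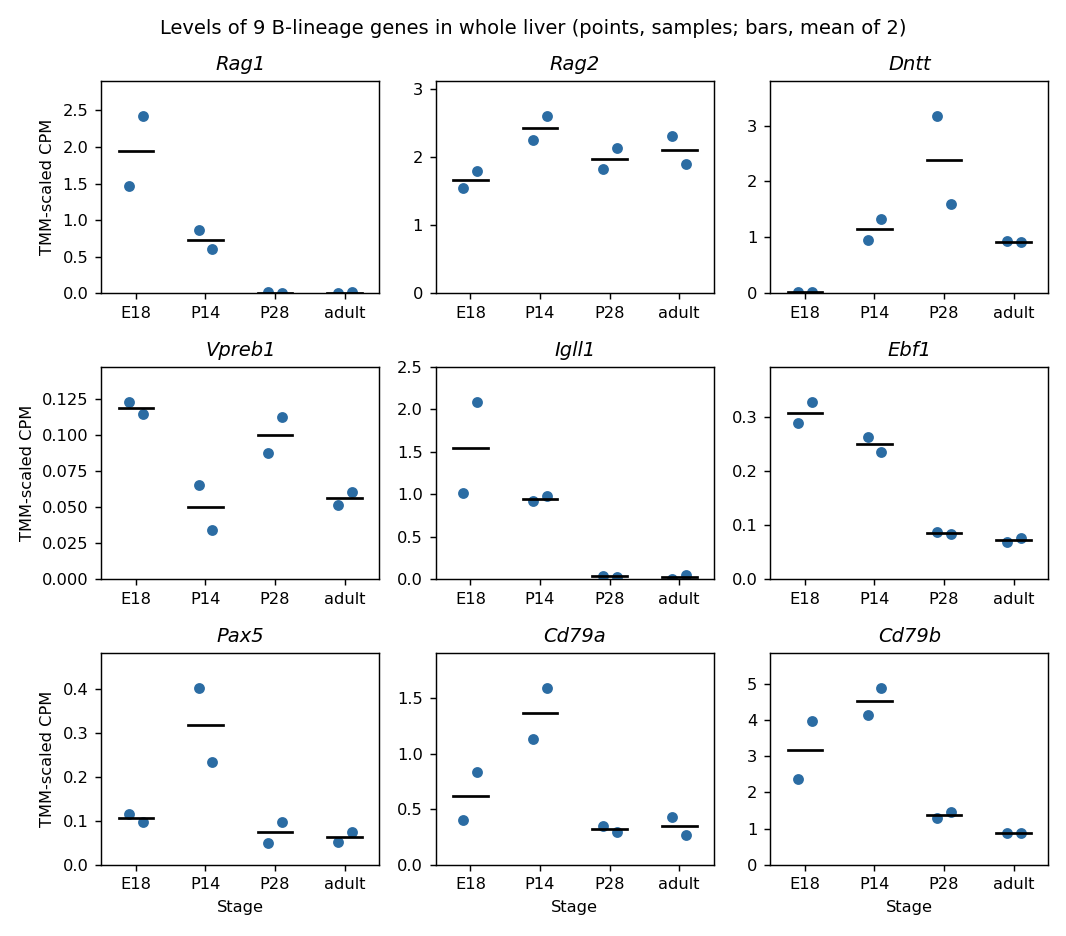
Level of each of the 9 genes by stage, in CPM after TMM scaling on a linear axis that starts at 0 and differs between panels. Points are the 2 samples of a stage and bars their mean. Rag1 and Igll1 are near 0 from P28 on, Dntt is near 0 at E18 only, Rag2 lies between 1.54 and 2.60 CPM in all 8 samples, and Pax5, Cd79a and Cd79b are highest at P14 on this scale, though Cd79b is not with library size alone.

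By interval, 0 of the 9 genes were called lower by edgeR from E18 to P14, against 15.4% of all tested genes, and 1 was called higher, Dntt, against 13.8%. At an unadjusted p below 0.05 the edgeR counts were 2 lower (Rag1 and Vpreb1) and 4 higher (Rag2, Dntt, Pax5 and Cd79a), and DESeq2 called 0 lower and 1 higher. The log2 fold change of Rag1 in this interval was -1.40 (SE 0.35, edgeR adjusted p = 0.0052), under 3-fold. It passed 3-fold with scaling by library size alone (-2.26), without E18 replicate 1 (-1.72) and without P14 replicate 1 (-1.67), and it was -0.99 without E18 replicate 2 and -1.16 without P14 replicate 2.

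From P14 to P28 the 5 genes called lower were Rag1, Igll1, Pax5, Cd79a and Cd79b, which include early genes and the receptor chains alike. None was called higher, against 3.61% of all tested genes, while Dntt was the 1 gene with a rise at an unadjusted edgeR p below 0.05 and DESeq2 called 0 higher.

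From P28 to adult 0 genes were called in either direction by edgeR or DESeq2, where edgeR called 2.24% of all tested genes lower and 0.767% higher. At an unadjusted p below 0.05 there were 2 lower and 0 higher. These were Dntt (log2 fold change -1.37, SE 0.34, edgeR adjusted p = 0.028, under 3-fold) and Cd79b (log2 fold change -0.64, SE 0.28, edgeR adjusted p = 0.17). Without P28 replicate 2, Dntt passed both thresholds at -1.78. The depth could not show a further change of Rag1 or Igll1, which had 0 to 3 reads in each sample of both stages.

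**Figure D2:**
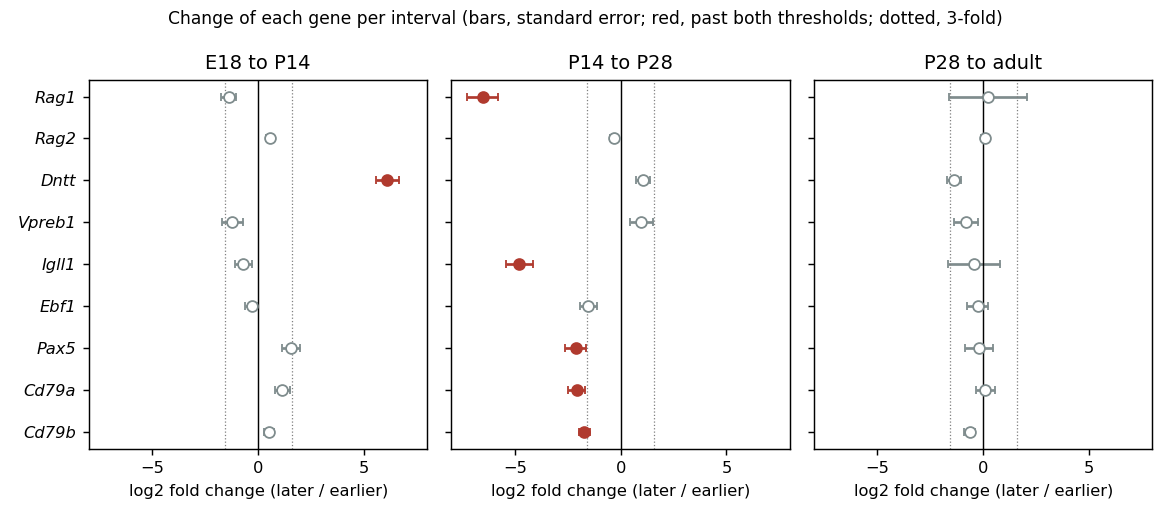
Log2 fold change of each gene in the 3 intervals between successive stages, with bars of 1 standard error. Filled red points pass both thresholds and dotted lines mark 3-fold. Dntt stands alone in the E18 to P14 panel at 6.10, 5 genes are past the threshold from P14 to P28, and none is from P28 to adult.

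Levels can be set between genes only per length, for which the deposited RPKM (reads scaled to transcript length in kilobases and to 1000000 mapped reads) were used. At E18 Cd79b was highest at 3.87 ± 1.30 RPKM and Igll1 followed at 2.59 ± 1.24 (SD, n = 2 each), with overlapping samples. Rag2 at 0.721 ± 0.0657, Cd79a at 0.680 ± 0.324 and Rag1 at 0.426 ± 0.140 RPKM came next, and neighbours in that order overlapped. Vpreb1 at 0.226 ± 0.0148, Ebf1 at 0.201 ± 0.0144, Pax5 at 0.130 ± 0.0170 and Dntt at 0.0106 ± 0.0008 RPKM closed the order, without overlap. The receptor chain Cd79b and the surrogate light chain gene Igll1 thus led in fetal liver. In adult liver Cd79b at 0.589 ± 0.0180 and Rag2 at 0.496 ± 0.0600 RPKM were followed by Dntt at 0.347 ± 0.0048 and Cd79a at 0.210 ± 0.0632, without overlap. Vpreb1 at 0.0583 ± 0.0076, Pax5 at 0.0421 ± 0.0120 and Ebf1 at 0.0257 ± 0.0022 RPKM followed, also without overlap. Igll1 at 0.0211 ± 0.0298 and Rag1 at 0.0009 ± 0.0013 RPKM were last, and the samples of Igll1 overlapped those of Pax5, Ebf1 and Rag1. Igll1 thus stood next to the bottom of the order in adult liver, where Dntt, the lowest of the 9 at E18, stood above Cd79a.

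Ratios within a sample compare genes without any scaling between libraries. Cd79b served as the reference, which early and mature B cells share. Rag1 stood at 0.111 and 0.110 RPKM per RPKM of Cd79b in the E18 samples, at 0.0375 and 0.0223 at P14, at 0.00174 and 0 at P28 and at 0 and 0.00305 in adult. The E18 duplicates lay apart in the level of Rag1 and of Cd79b but were nearly equal in this ratio. Igll1 per Cd79b was 0.584 and 0.724 at E18, 0.305 and 0.275 at P14, then 0.0401 and 0.0262 at P28 and 0 and 0.0700 in adult. In both P14 samples Rag1 and Igll1 were lower relative to Cd79b than in either E18 sample. P14 to P28 was the only interval between successive stages in which Cd79b was called lower. Vpreb1, Rag2 and Dntt stood higher relative to Cd79b in every P28 and adult sample than in either E18 sample. The mean ratio at E18, P14, P28 and adult was 0.0627, 0.0177, 0.112 and 0.0988 for Vpreb1, which had few reads. It was 0.195, 0.191, 0.507 and 0.844 for Rag2 and 0.00286, 0.142, 0.996 and 0.589 for Dntt.

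Ms4a1, which codes for the mature B-cell antigen CD20, ran opposite to Rag1 and Igll1. It had 0 and 0.00120 RPKM per RPKM of Cd79b at E18, 0.109 and 0.0991 at P14, then 0.294 and 0.128 at P28 and 0.160 and 0.197 in adult. No E18 sample reached a postnatal one. Cd79a per Cd79b was 0.172 ± 0.0259 at E18, 0.271 ± 0.0332 at P14, then 0.213 ± 0.0459 at P28 and 0.359 ± 0.118 in adult (SD, n = 2 each), and Ebf1 per Cd79b stayed between 0.0258 and 0.0647 in all 8 samples.

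**Figure D3:**
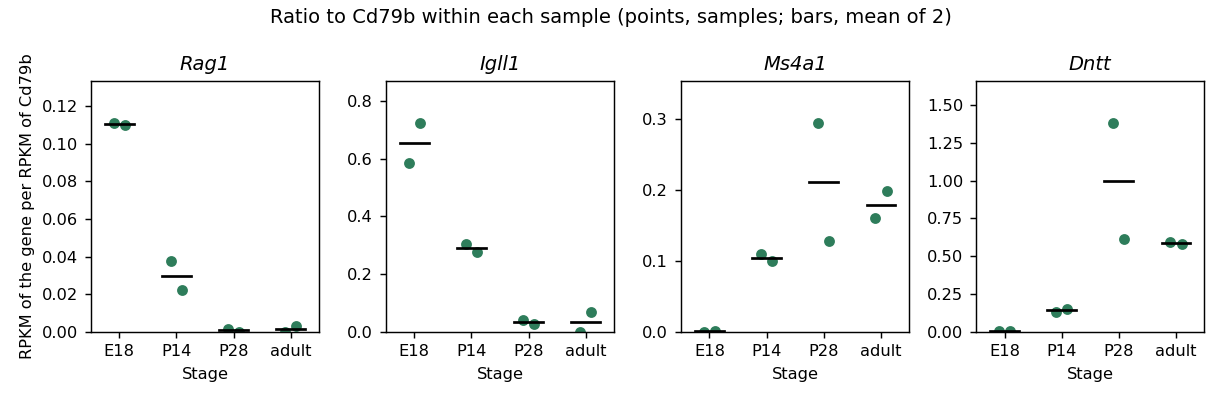
RPKM of Rag1, Igll1, Ms4a1 and Dntt divided by the RPKM of Cd79b in the same sample, by stage, on linear axes from 0. Points are samples and bars the mean of 2. Rag1 and Igll1 fall from E18 to P28, whereas Ms4a1 and Dntt are near 0 at E18 only, and the P28 samples of Dntt lie apart at 1.38 and 0.611.

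The summed RPKM of the 5 early genes over that of Cd79a and Cd79b, called the early to mature ratio although both chains are also used early, was 0.875 ± 0.0007 at E18, 0.528 ± 0.0368 at P14, then 1.35 ± 0.392 at P28 and 1.16 ± 0.0445 in adult (SD, n = 2 each). Rag2 and Dntt made up most of the early sum at P28 and in adult. Without these 2 genes, a choice made after the data were seen, the ratio was 0.706 ± 0.0466, 0.266 ± 0.0397, 0.121 ± 0.0029 and 0.102 ± 0.0542. The direction of an early to mature comparison thus depended on which early genes entered it.

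Further genes of the early B lineage were taken as a list of 22, of which 20 were tested, and 11 of these were called lower and 0 higher from E18 to adult (13 and 2 at an unadjusted edgeR p below 0.05, and 11 and 0 by DESeq2). Of all tested genes 23.8% were called lower and 16.8% higher. The median log2 fold change of the list was -1.66, against -0.11 over all tested genes. The largest falls were of Myb (-8.38, SE 0.26), Bcl11a (-8.02, SE 0.18) and Ikzf1 (-6.38, SE 0.19), transcription factors that other blood progenitors use too, each with an edgeR adjusted p of at most 8.5e-09. Myb had 4908 and 3671 reads at E18 and 7 and 5 in adult. All 3 were called lower already from E18 to P14, with log2 fold changes of -4.04, -6.35 and -4.55, an interval in which neither Rag1 nor Igll1 was called. The difference between these genes was not tested.

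Myb, Bcl11a and Il7r were also among the 7 genes of the list called lower from P14 to P28. Il7r, the receptor for the growth factor of pro-B cells, had 87 and 134 reads at E18, 109 and 95 at P14, then 31 and 19 at P28 and 17 and 22 in adult. It fell from P14 to P28 by 1.78 on the log2 scale (SE 0.35, edgeR adjusted p = 0.0031). Vpreb3, named after its values were seen and coding for a protein related to VPREB1, fell by 3.60 in that interval (SE 0.58, edgeR adjusted p = 0.0011), from 106 and 142 reads to 11 and 6.

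Over the list, 7 genes were called lower and 4 higher from E18 to P14 (median 0.18, all genes -0.03), against 15.4% and 13.8% of all tested genes. From P14 to P28 it was 7 lower and 0 higher (median -1.26, all genes -0.05), against 5.98% and 3.61%. In that interval 1 gene was higher at an unadjusted edgeR p below 0.05 and 0 by DESeq2. Among the 4 higher genes was Ly6d, named after its values were seen, whose P14 duplicates had 159 and 818 reads. With library size alone, 1 gene instead of 4 was called higher from E18 to P14.

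Of 22 mature B-cell genes, all tested, 12 were called higher and 1 lower from E18 to P14, against 13.8% and 15.4% of all tested genes. The median log2 fold change of the list was 1.64, against -0.03 over all tested genes. Library size alone gave 6 higher and 4 lower, and the gene called lower with TMM, Tnfrsf13b (-1.59), was just past 3-fold. Ms4a1 rose from 0 and 1 reads at E18 to 71 and 74 at P14 and had 52 and 23 at P28 and 14 and 20 in adult. Its P14 level was 209 times that of E18 (95% counting interval 37.0 to 8328). Fcer2a, the low-affinity IgE receptor CD23, had 8 and 1 reads at E18 and 32 and 45 at P14 (log2 fold change 3.59, SE 0.57, edgeR adjusted p = 0.00037). Faim3, the IgM receptor, had 7 and 3 reads at E18 and 28 and 51 at P14 (log2 fold change 3.48, SE 0.57, edgeR adjusted p = 0.00047). All 3 of these genes were near the counting limit at E18 and well above it in every postnatal sample.

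The complement receptor gene Cr2, named after its values were seen and coding for CD21, was highest at P14. It had 12 and 14 reads at E18, 234 and 225 at P14, then 28 and 29 at P28 and 17 and 27 in adult. From P14 to P28, 4 of the 22 mature genes were called lower and 0 higher (median -0.75), against 5.98% and 3.61% of all tested genes. In that interval 1 was higher at an unadjusted edgeR p below 0.05 and 0 by DESeq2. Between E18 and adult 6 were higher and 3 lower (median -0.19), against 16.8% and 23.8% of all tested genes. The 3 lower ones were Tnfrsf13b (TACI, a receptor for the survival factor BAFF, -3.94, SE 0.68), Cd40 (-3.10, SE 0.25) and the leukocyte tetraspanin Cd37 (-2.44, SE 0.14), of which the last 2 are also made by other white blood cells. Their edgeR adjusted p-values were at most 0.00056. From P28 to adult neither the early nor the mature list had a called gene by edgeR or DESeq2. At an unadjusted edgeR p below 0.05 there were 7 lower and 2 higher early genes and 5 lower and 0 higher mature genes.

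**Figure D4:**
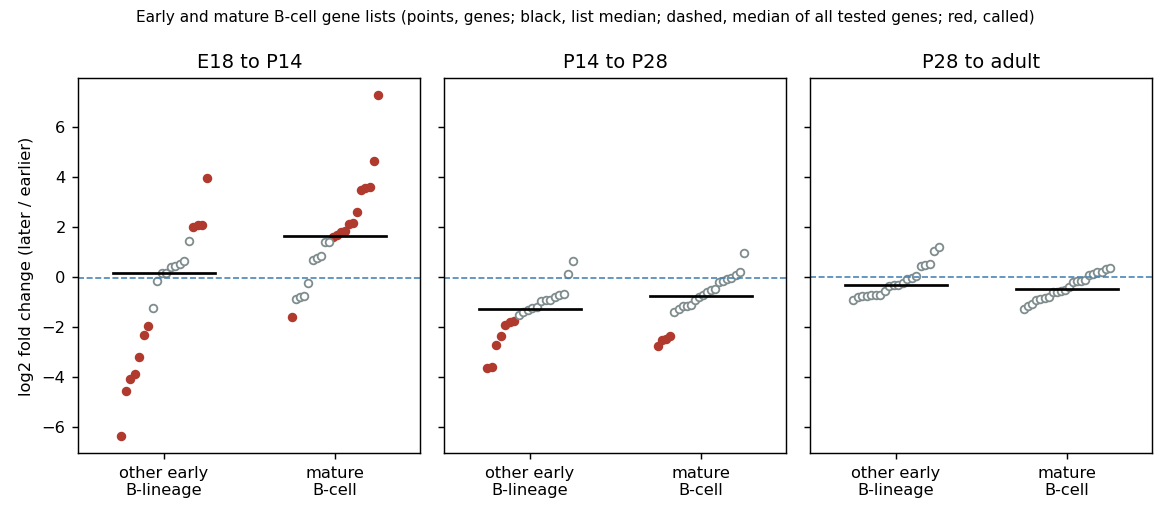
Log2 fold change of each gene of the early B-lineage list (20 tested) and the mature B-cell list (22) in the 3 intervals. Points are genes, red ones pass both thresholds, black bars are list medians and the dashed line is the median of all tested genes. From E18 to P14 the mature list lies mostly above 0 and the early list on both sides, and from P14 to P28 both medians are below 0, at -1.26 and -0.75.

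Among 8 ligands of the B-cell niche, Il7, the growth factor of pro-B cells, was called in all 3 intervals. It had 99 and 102 reads at E18, 393 and 463 at P14, then 47 and 35 at P28 and 7 and 12 in adult. It rose from E18 to P14 (log2 fold change 2.62, SE 0.21, edgeR adjusted p = 4.5e-06), fell to P28 (-3.13, SE 0.23, adjusted p = 1.7e-05) and fell again to adult (-1.82, SE 0.32, adjusted p = 0.0068). Both P14 samples thus lay above all others.

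From E18 to adult 3 of the 8 ligand genes fell and 1 rose, near the 23.8% and 16.8% of all tested genes. The others that fell were Vcam1 (an adhesion molecule for progenitors, -5.19, SE 0.11, edgeR adjusted p = 2.0e-09) and Kitl (the ligand of KIT, -4.47, SE 0.17, adjusted p = 2.1e-08). Cxcl12, the chemokine that holds B-cell precursors in the marrow, rose by 2.24 (SE 0.13, edgeR adjusted p = 2.4e-07) with TMM scaling, and was not called with library size alone.

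Of the 13 genes for the end joining that completes V(D)J recombination, 2 fell from E18 to adult and 0 rose, against 23.8% and 16.8% of all tested genes, with a median of 0.07. These were Hmgb2 (-4.54, SE 0.23) and H2afx (-3.30, SE 0.16), which dividing cells use as well, with edgeR adjusted p-values of at most 1.3e-07. DESeq2 also called 0 higher, and 6 were lower and 5 higher at an unadjusted edgeR p below 0.05.

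From E18 to adult, 2 of 7 tested plasma cell genes fell and 2 rose, also near the 23.8% and 16.8% of all tested genes. The genes that fell were Pou2f2 (252 and 202 reads at E18, 10 and 17 in adult) and Prdm1 (-2.27, SE 0.28), and those that rose were Igj (4.87, SE 0.41) and Derl3 (4.46, SE 0.69), each with an edgeR adjusted p of at most 0.00026. Igj codes for the J chain that joins secreted IgM and IgA, and it had 5 and 10 reads at E18, 24 and 38 at P14, then 62 and 70 at P28 and 98 and 117 in adult. Its mean was higher at each later stage than at the one before, which held for none of the 9 B-cell development genes. Derl3, which serves protein disposal in secretory cells, had 1139 and 3262 reads in the P28 duplicates and 1295 and 461 in adult.

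Other cell types moved with the stages too. Hepatocyte markers were abundant throughout, at 55557 CPM or more summed over 8 genes, as the tissue label says. The 9 erythroid markers all fell from E18 to adult, from a sum of 6552 to 8585 CPM at E18 to 72.9 to 82.9 at P14 and 77.8 to 82.8 in adult. The 9 neutrophil granule markers all fell as well, from 1069 to 1251 CPM at E18 to 178 to 191 at P14, then 3.80 to 5.79 at P28 and 1.44 to 3.95 in adult, where 3 of them were at 0 in both samples. Of 10 proliferation genes all 10 fell, from 2289 to 2627 CPM at E18 to 237 to 264 at P14, then 46.8 to 58.4 at P28 and 6.81 to 8.83 in adult. Of the proliferation genes all 10 were called lower from E18 to P14 and from P14 to P28 and 8 from P28 to adult, and of the neutrophil markers 9, 8 and 3. The erythroid sum was lost before P14.

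Of 10 tested T-cell markers, 6 rose and 2 fell from E18 to adult, against 16.8% and 23.8% of all tested genes. The sum of the T-cell markers was 12.1 to 13.6 CPM at E18, 18.1 to 20.7 at P14, then 19.1 to 20.01 at P28 and 27.8 to 28.6 in adult. The P14 and P28 sums overlapped, and the higher sum in adult came from Cd4 and Zap70. The median log2 fold change of the list was -0.80 from P14 to P28 and -0.74 from P28 to adult, with 7 and 8 of the 10 markers lower. Of 5 tested markers of plasmacytoid dendritic cells, which also express some early B-cell genes, 1 fell and 0 rose from E18 to adult. The shares of all tested genes were 23.8% and 16.8%. The sums of these markers were 3.17 to 3.63, 2.51 to 2.82, 1.79 to 1.79 and 1.58 to 2.21 CPM by stage. DESeq2 also called 0 higher, and 1 was higher at an unadjusted edgeR p below 0.05. Pancreatic acinar markers summed to 239 CPM in E18 replicate 1 and 516 in E18 replicate 2, against 32.5 to 119 CPM after birth. Most of the sum after birth was Cela1, with a mean of 21.6 (P14), 117 (P28) and 112 CPM (adult), up from 11.9 (E18). Pnliprp1 still had a mean of 10.5 CPM in the P14 livers. The postnatal stage means of Cpa1, Ctrb1, Cel and Prss2 were at most 0.23 CPM. On the CPM scale, E18 replicate 2 was also the higher of its pair in Rag1, Rag2, Dntt, Igll1, Ebf1, Cd79a and Cd79b. That sample was the lower of the pair in Vpreb1 (0.114 against 0.122 CPM) and Pax5 (0.0981 against 0.115 CPM). The part of these cell types in the 9 genes was not tested.

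**Figure D5:**
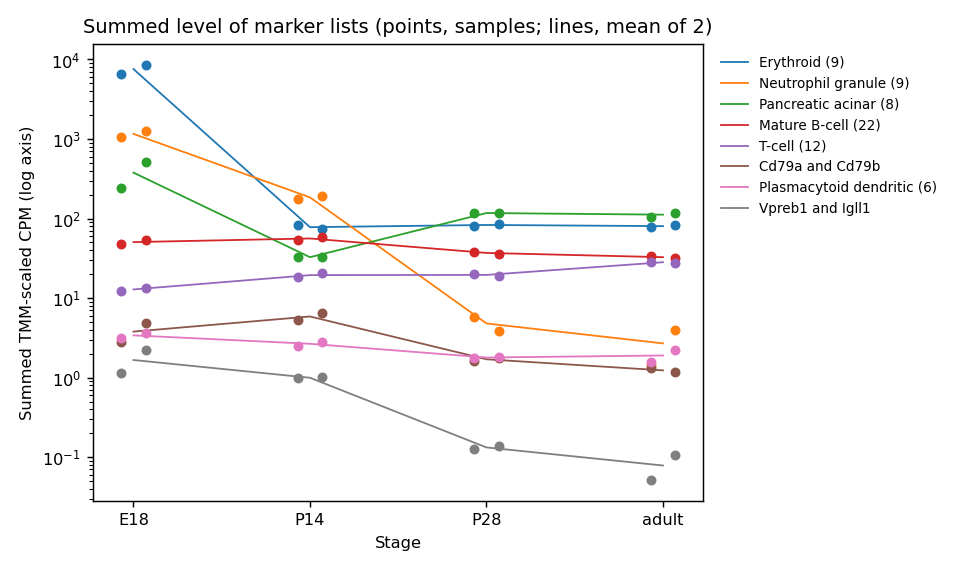
Summed level of marker lists by stage, in CPM after TMM scaling on a log axis. Points are samples, lines join the mean of 2, and the number of genes is in brackets. The sum of Vpreb1 and Igll1 falls between P14 and P28 and that of Cd79a and Cd79b is highest at P14 on this scale, though Cd79b is not with library size alone, while the erythroid sum drops before P14. The T-cell sum overlaps between P14 and P28 and is higher in adult, through Cd4 and Zap70, with most other T-cell markers lower than at P28.

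The genes with the most similar course were ranked by the distance between log2 CPM profiles over the 8 samples, each centred on its own mean, among the 17080 other tested genes. The 5 nearest to Igll1 were Retnlg (distance 1.99), Mfap2 (2.17), Pglyrp1 (2.20), Cd177 (2.26) and Asprv1 (2.48). Retnlg, Pglyrp1 and Cd177 are neutrophil genes, and Retnlg had 603 and 594 reads at E18, 338 and 342 at P14, then 17 and 2 at P28 and 1 and 10 in adult. The 5 nearest to Cd79a were Tmem22 (0.73), Hlx (0.91), Snai3 (0.92), Galk1 (0.96) and S100a4 (0.97). Galk1, a galactose-metabolizing enzyme, had 13370 and 13364 reads at E18, 19817 and 20501 at P14, then 5829 and 5141 at P28 and 3254 and 3416 in adult. The nearest to Dntt, named after values were seen, were Rdh18-ps (0.92), Nlrc5 (1.02), AW112010 (1.09), Ces2e (1.15) and Igf1 (1.35). Igf1 is made mainly by hepatocytes. Genes known from other cell types were thus among the nearest to Igll1 and Dntt.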

How the data were processed

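Whole-liver RNA was isolated (Trizol in the labels, RNeasy in the Methods) and sequenced as 100 bp read pairs. The authors aligned the reads and deposited, per gene and sample, raw read counts without normalization. The authors also deposited RPKM, in which reads are scaled to transcript length in kilobases and to 1000000 mapped reads. The submitters' processing notes name the build mm9, and the aligner, its version and the strand setting are not given in the sources used here. The files hold no coordinates, so positions are from GENCODE M21 and promoters from RefSeq, both on GRCm38. Between 68154675 and 106055723 reads per sample lay on genes, and intervals and the 3-read limit cover counting error only.

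Genes passing filterByExpr of edgeR 4.0.16 (17081) were scaled by TMM and fitted with glmQLFit and glmQLFTest, with 1 coefficient per stage over all 8 samples. TMM factors were 1.54 and 1.60 at E18 and 0.847 to 0.888 after birth. The FDR below 0.1 is that of the study's DESeq test, and the 3-fold change is a threshold the study gives separately. The SE is the log2 fold change divided by the square root of F. In simulated data for E18 to adult (16600 genes), edgeR recovered 99.0% of 197 changed genes with 1 false call. There all changed genes moved by the same large fold, all genes had the same dispersion, and no wide shift in composition was built in. The simulation therefore cannot give the error rate of the calls in these data. DESeq2 1.42.0, limma 3.58.1 on log2(RPKM + 0.1), other scalings, filters, thresholds, a replicate block and the omission of each sample were the alternatives.

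The 9 genes and the gene lists were chosen with earlier results of these data known. Genes named were the 9, the 3 largest called changes in each direction from E18 to adult in each pathway list, Vpreb2, Ms4a1, Il7r and Il7, and the 5 genes nearest to Igll1 and to Cd79a by Euclidean distance of log2 CPM. Others are marked where they appear, and marker genes of other cell types stand beside results. No immunoglobulin gene other than Igj was used here, and 1 further gene of the naming rule is not reported here.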

Additional observations from a re-analysis of the deposited data

How the results depend on the processing

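Scaling bears most on comparisons with E18, whose libraries differ in composition. The median log2 fold change of all tested genes from E18 to adult was -0.11 with TMM, -0.95 with library size alone and -0.78 with limma on RPKM. Rag2 reversed under library size and limma from E18 to adult (-0.51 and -0.46) and to P14 (-0.32 and -0.27), and so did Cd79b from E18 to P14 (-0.35 and -0.30). With library size alone, 2 genes (Rag1 and Vpreb1) were called lower from E18 to P14. It also gave 6 mature and 4 plasma cell genes lower and 0 niche ligands higher from E18 to adult, and 1 early gene higher and 4 mature genes lower against 6 higher from E18 to P14.

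With at least 10 counts in every sample only 3 of the 9 genes were tested, which left 1 lower and 0 higher from E18 to adult, 0 higher from E18 to P14 and 2 lower from P14 to P28. limma called 3 lower from P14 to P28, where the pseudocount compresses low genes. A 2-fold threshold gave 2 lower and 3 higher from E18 to P14, 1 higher from P14 to P28 and 1 lower from P28 to adult. Leaving out each sample gave 0 to 2 lower and 1 to 2 higher from E18 to P14 and 0 to 1 lower from P28 to adult, and 0 to 1 mature genes lower from E18 to P14, where Tnfrsf13b stood just past 3-fold. An arm left with 1 sample was assumed to vary like the other stages.

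The early to mature ratio at E18, P14, P28 and adult was 1.42, 0.908, 2.66 and 2.53 with raw counts, 0.211, 0.170, 0.265 and 0.228 with mean logs, and 0.706, 0.266, 0.121 and 0.102 without Rag2 and Dntt (added after seeing the data). The cause of these shifts was not tested. With a replicate block, 4 genes were lower and 1 higher from E18 to adult and no call of the 9 genes changed. Samples sharing a replicate number did not deviate together (r of -0.192 to 0.0756 over 13195 genes for the 6 pairs of stages), so the numbers were not taken as pairs.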
